A study of Mus musculus with 6 samples.

Results

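This account follows fatty acid binding protein genes and genes typical of fat cells in whole mouse uteri after 1 dose of estradiol, the chief estrogen of the ovary. Its members are 10 gene symbols, Fabp3, Fabp4, Fabp5, Cd36, Lpl, Retn, Car3, Cfd, Adipoq and Lepr, read through all probe sets annotated to them alone. Of these, 9 genes have 12 probe sets among the 12422 used on the array, against 8251 genes named in all, and Cfd has none. The symbols were chosen by function and by the signals and ratios to vehicle that these same arrays had already shown, so every difference below is a description. The female C57BL/6 mice, 10 to 11 weeks old, had been ovariectomised 7 days before they were killed, and this holds for the vehicle animals too. They were injected under the skin with 0.05 µg of estradiol each and killed after 1, 3, 6, 12 or 24 h, or with vehicle and killed after 24 h. Each of these 6 groups is 1 Affymetrix U74Av2 array of RNA from pooled, trimmed uteri (the labels speak of 10 mice, without saying whether per group), so there is no replicate and no test, and no difference can be set against the spread between animals. Only the 24 h comparison is matched to vehicle in time since injection.

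Fatty acids are poorly soluble, so cells move them with small binding proteins. Fabp4 is the form of adipocytes and macrophages, Fabp5 the form first described in epidermis and Fabp3 the form of heart and skeletal muscle. Fabp5 is also known to carry ligands to the nuclear receptor PPAR delta. Lipoprotein lipase (Lpl) frees fatty acids from circulating triglycerides, and the surface receptor Cd36 helps cells take them up. Adiponectin (Adipoq), resistin (Retn) and adipsin (Cfd) are proteins that mouse fat cells secrete, the carbonic anhydrase Car3 is abundant in fat cells and slow muscle fibres, and Lepr is the receptor for the fat hormone leptin.

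Values are MAS5 signal, a linear intensity without a unit, scaled to the same trimmed mean on every array. Signals under 142.8, the 40th percentile of all values, are treated as below the floor, and a fold against such a value is given as "at least". A member was counted as different when its signal was at least 2-fold from vehicle. Over the vehicle, 1, 6, 12 and 24 h arrays, 7 of the 9 member genes reached the floor at least once, 5 of them on all 5 arrays, while Fabp3 and Cd36 never did. The array labelled 3 h is kept apart. Its Spearman correlation with the other arrays over all probe sets was 0.843 to 0.857, against 0.929 to 0.968 among the other 10 pairs, and its markers go against its label. On it 13 of 14 skeletal muscle markers were above the floor, against 5 of 14 in vehicle, and 4 of 17 uterine epithelium markers, against 15 of 17 in vehicle. The summed signal of the uterine epithelium markers was higher on it, 21300 against 17360, with Ltf at 11157 and Lcn2 at 9662. Myosin heavy chain Myh4 had a signal of 14211 there, against 1.3 in vehicle.

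Among the members measured, Fabp5 alone was above vehicle at 6, 12 and 24 h. Its signal was 78.2 (vehicle), 500 (1 h), 536.8 (6 h), 929.2 (12 h) and 1982.7 (24 h). The vehicle value is the only one of the 5 that lies below the floor. Against the floor, Fabp5 was at least 3.50-fold (1 h), 3.76-fold (6 h), 6.51-fold (12 h) and 13.9-fold (24 h) higher. At 1 h this bound was the 9th highest among 6034 genes measured, and at 24 h the 11th highest among 6070. The climb came in separate steps: after the first hour the signal was nearly level, 1.07-fold higher at 6 h than at 1 h, then 1.73-fold higher at 12 h than at 6 h and 2.13-fold higher at 24 h than at 12 h. The median gene measured differed by a log2 ratio of 0.02 over the 6 to 12 h step and 0.01 over the 12 to 24 h step. With the floor at the 60th percentile, the log2 bound of Fabp5 was 0.50 at 1 h and 0.61 at 6 h, under 2-fold, so the early difference depends on how dim vehicle signals are treated.

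**Figure D1:**
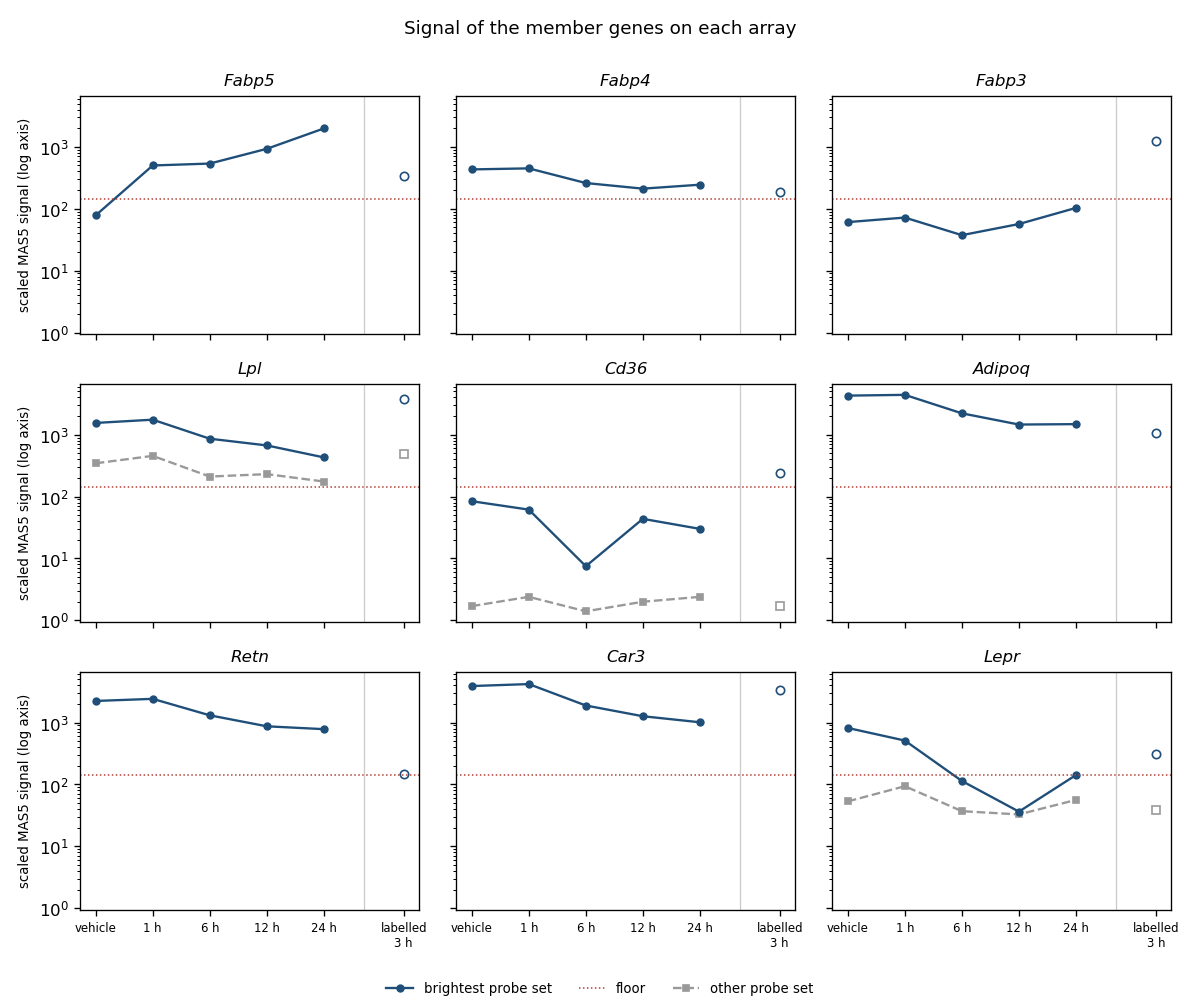
Scaled MAS5 signal (log axis) of each member gene on the vehicle array and 1, 6, 12 and 24 h after estradiol, with the array labelled 3 h set apart as an open symbol. Each point is 1 array, blue marks the brightest probe set, grey another probe set, and the dotted red line the floor of 142.8. Fabp5 climbs to 1982.7 at 24 h while Adipoq, Retn, Car3, Lpl and Lepr end below vehicle.

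Fabp4, the closest counterpart of Fabp5 in fat cells, went the other way. Its signal was 432 (vehicle), 448.9 (1 h), 260.1 (6 h), 211.1 (12 h) and 244.5 (24 h). The vehicle and 1 h arrays were alike, and the 3 later arrays were all lower, at 60.2%, 48.9% and 56.6% of the vehicle signal. Only the 12 h value, 2.05-fold lower, passed 2-fold, and it did so narrowly: the log2 ratio was -1.03, and -0.96 after scaling by the median instead. It was also inside 2-fold with quantile normalization (-0.97) and with no floor and 16 added (-0.98). With the floor at the 60th percentile it was a bound of -0.29.

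Set against each other within the same pairs of arrays, the log2 ratio of Fabp5 exceeded that of Fabp4 by at least 1.75 (1 h), 2.64 (6 h), 3.74 (12 h) and 4.62 (24 h). As a ratio of folds this is at least 3.37, 6.24, 13.3 and 24.5. The gap was wider at each later time, and from 6 h on Fabp4 itself stayed within 211.1 to 260.1. In the RefSeq gene order of GRCm38.p6 the 2 genes lie in the same cluster, with 4 annotated genes between them. Of these 4, the array reads only Fabp9, a testis form, which was below the floor on all arrays at 8.6 to 67.

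Adiponectin, the hormone by which fat cells raise insulin sensitivity, was lower from 6 h on. The signal of Adipoq was 4283.1 (vehicle), 4407.4 (1 h), 2215.7 (6 h), 1460.3 (12 h) and 1481.9 (24 h). It was 1.93-fold lower at 6 h, just short of 2-fold, and 2.93-fold and 2.89-fold lower at 12 and 24 h. The 12 and 24 h arrays differed by only 1.01-fold.

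Resistin followed the same course. Retn had a signal of 2236.2 (vehicle), 2417.8 (1 h), 1310.1 (6 h), 870.7 (12 h) and 782.7 (24 h). It was lower by 1.71-fold (6 h), 2.57-fold (12 h) and 2.86-fold (24 h). Every array from 6 h on lay below vehicle, and each was lower than the one before.

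Car3 was lower than vehicle by more than Adipoq and Retn were at each of the 3 later times. Its signal was 3894 (vehicle), 4190.5 (1 h), 1887.7 (6 h), 1266.3 (12 h) and 1011.8 (24 h). It was lower by 2.06-fold (6 h), 3.08-fold (12 h) and 3.85-fold (24 h), the last being the 10th lowest of the genes measured at 24 h. Car3 is also a muscle enzyme, and on these 5 arrays the summed signal of skeletal muscle markers was 2969 to 4278 at 6, 12 and 24 h, against 3758 to 4154 in vehicle and at 1 h. The muscle genes Ckm, Mb, Myh1, Myh2, Myh4, Tnni2, Tnnt3 and Ryr1 were below the floor on all 5. The sum rests largely on Pvalb and Acta1, which went opposite ways. Pvalb read 2805 in vehicle and was 2.36-fold (6 h), 2.35-fold (12 h) and 1.72-fold (24 h) lower. Acta1 read 485.4 in vehicle and was 1.95-fold (6 h), 5.29-fold (12 h) and 3.32-fold (24 h) higher. The part of muscle in the Car3 signal was not tested. The muscle list had 0, 1 and 1 genes at least 2-fold higher and 1, 1 and 0 lower at 6, 12 and 24 h, of 6, 5 and 6 measured, with medians of -0.02, -0.42 and 0.13. Over all genes measured, 6.91%, 6.71% and 3.69% were higher and 9.1%, 7.55% and 3.82% lower.

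Across Fabp4, Adipoq, Retn and Car3, the log2 ratios lay between 0.04 and 0.11 at 1 h, when Adipoq fell on either side of vehicle depending on the scaling (-0.01 after scaling by the median). They lay between -1.04 and -0.73 at 6 h, between -1.62 and -1.03 at 12 h and between -1.94 and -0.82 at 24 h. The spread among the 4 was thus 0.07 at 1 h and 1.12 at 24 h on the log2 scale. The median of all genes measured was -0.01 (1 h), -0.05 (6 h), -0.04 (12 h) and -0.04 (24 h).

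**Figure D2:**
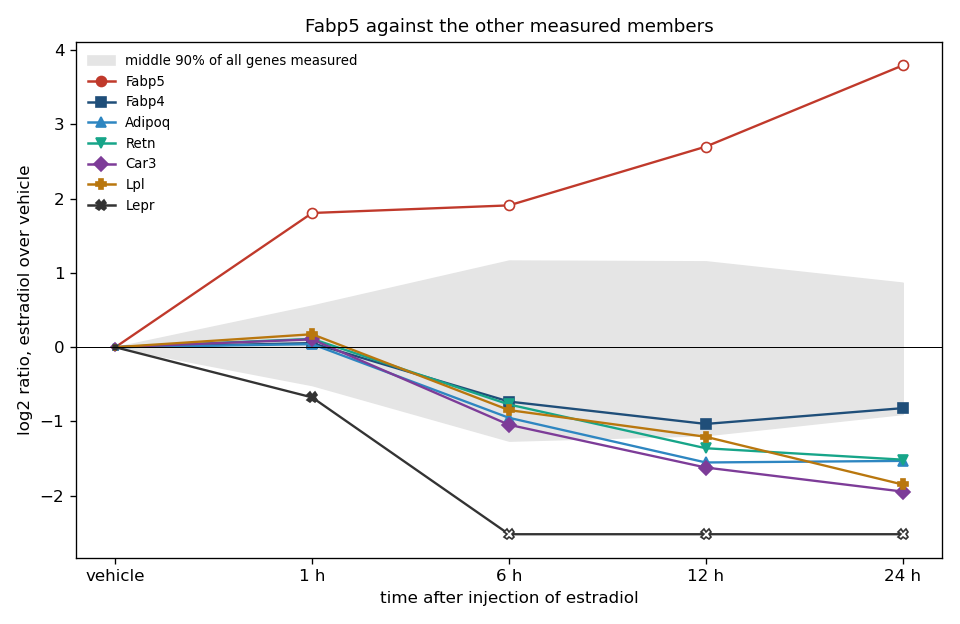
Log2 ratio of each estradiol array over vehicle for the 7 member genes that reached the floor, at 1, 6, 12 and 24 h, with vehicle at 0. Open symbols are bounds because 1 of the 2 signals lies below the floor, and the grey band holds the middle 90% of all genes measured at that time. Fabp5 lies above the band at every time, and Lepr below it.

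Lipoprotein lipase, the enzyme that supplies fatty acids from the blood, was read by a bright and a dim probe set. The bright one had a signal of 1549.7 (vehicle), 1749.4 (1 h), 861.6 (6 h), 671.5 (12 h) and 430.1 (24 h). It was lower by 1.80-fold (6 h), 2.31-fold (12 h) and 3.60-fold (24 h), the last being the 12th lowest difference at 24 h. Between 12 and 24 h Lpl differed by a further 1.56-fold, where Adipoq had been level. The dim probe set read 345.4 (vehicle), 455.2 (1 h), 210.8 (6 h), 230.7 (12 h) and 175.2 (24 h). It took the same direction at each time but stayed inside 2-fold, with a log2 ratio of -0.98 at 24 h, and with the median of both probe sets Lpl stood at -0.89 at 12 h.

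The leptin receptor was the only member already lower at 1 h. Lepr, by the probe set that reached the floor, had a signal of 818.5 (vehicle), 512.2 (1 h), 113.8 (6 h), 36.4 (12 h) and 141.9 (24 h). It was 1.60-fold lower at 1 h and at least 5.73-fold lower at 6, 12 and 24 h, a bound set by the floor. At each of these times the log2 ratio was -1.21 with the floor at the 60th percentile and -1.26 with the median of both probe sets, against -2.52. The 3 later signals are all below the floor, the 24 h one barely, so their order is not measured. A second probe set of Lepr was below the floor on every array, at 32.8 to 93.7, and says nothing for or against the first. Leptin itself (Lep) had a signal of 912.5 in vehicle, 750.8 at 6 h, 771.1 at 12 h and 701.8 at 24 h, with log2 ratios of -0.28, -0.24 and -0.38.

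Fabp3 and Cd36 gave no level in the uterus on the 5 arrays. Fabp3 read 37.4 to 103.1 and the brighter probe set of Cd36 read 7.5 to 84.2, all below the floor, so no fold is given. The other Cd36 probe set read 1.4 to 2.4. Nothing can be said from these about a change after estradiol.

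Counted together, 1 of the 7 members measured, Fabp5, was at least 2-fold higher at 1, 6, 12 and 24 h. Among all genes measured, 0.928%, 6.91%, 6.71% and 3.69% were higher at these times. At 1 h 0 members were at least 2-fold lower, beside 0.381% of all genes. At 6 h 2 were, beside 9.1%, at 12 h 6, beside 7.55%, and at 24 h 5, beside 3.82%. The pair at 6 h were Car3 and Lepr, all 6 except Fabp5 passed at 12 h, and Fabp4 dropped back inside 2-fold at 24 h. Over the settings tried the count at 12 h was 5 or 6, because Fabp4 or Lpl came inside 2-fold under some. The member medians were 0.11, -0.85, -1.36 and -1.53 in log2 at 1, 6, 12 and 24 h. Because the genes were picked with these ratios in view, the counts describe them and carry no further weight.

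Promoter sequences, from 250 bases before to 50 bases after the annotated start, were at hand from RefSeq (GRCm38.p6) for 6 of the 10 symbols, with 7 promoters in all. Those of the secreted fat proteins Adipoq and Retn, which were lower together, and of Lepr are shown, with capitals marking the only match among the motifs searched.
Adipoq, chr16:23146286-23146585, plus strand: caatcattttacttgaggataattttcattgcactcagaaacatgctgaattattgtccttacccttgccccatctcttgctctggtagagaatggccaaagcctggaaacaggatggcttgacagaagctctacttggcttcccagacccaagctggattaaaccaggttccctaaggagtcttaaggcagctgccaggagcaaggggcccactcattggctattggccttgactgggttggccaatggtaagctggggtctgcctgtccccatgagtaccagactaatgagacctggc
Retn, chr8:3655520-3655819, plus strand: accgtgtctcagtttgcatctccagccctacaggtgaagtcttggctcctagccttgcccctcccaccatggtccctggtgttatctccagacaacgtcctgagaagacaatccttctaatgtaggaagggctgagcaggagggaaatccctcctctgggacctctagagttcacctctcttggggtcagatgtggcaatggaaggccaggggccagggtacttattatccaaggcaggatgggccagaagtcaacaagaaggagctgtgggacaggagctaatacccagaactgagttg
Lepr, chr4:101717656-101717955, plus strand: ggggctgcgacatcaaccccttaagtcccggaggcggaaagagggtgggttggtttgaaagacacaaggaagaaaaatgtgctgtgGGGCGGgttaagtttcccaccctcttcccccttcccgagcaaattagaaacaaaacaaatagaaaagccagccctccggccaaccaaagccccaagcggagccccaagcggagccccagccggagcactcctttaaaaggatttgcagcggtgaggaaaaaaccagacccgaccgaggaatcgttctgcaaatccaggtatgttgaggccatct

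Exact matches were sought on both strands to the palindromic estrogen response element, the direct repeat of DR1 type bound by PPAR with RXR, the AP-1 site TGANTCA, the Sp1 site GGGCGG and the TATA box TATAAA. Of all 32851 promoters of this length, 0.07%, 0.0396%, 7.81%, 35.7% and 13.6% held them. The Adipoq and Retn promoters held none of the 5. The Lepr promoter printed held 1 Sp1 match, which begins 164 bases before the start, and the second Lepr promoter held none. The Cd36 promoter held 2 Sp1 matches, and those of Fabp3 and Cfd none. These matches are descriptions of letters and no evidence of binding.

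Adipocyte markers outside the members were lower too. On a list of adipocyte markers, 11 of the 14 on the array were measured at 6, 12 and 24 h, and all 11 lay below vehicle at each of these times. Cidea, Cidec, Slc2a4 and Ucp1 were below the floor at each of these times and measured through vehicle alone. They could therefore only lie below it. Cidea and Ucp1 were below the floor at 1 h too. Of the 11, 1, 4 and 1 were at least 2-fold lower at 6, 12 and 24 h and none higher. Among all genes measured, 9.1%, 7.55% and 3.82% were lower at these times, so the counts at 6 and 24 h have little weight. The medians were -0.64, -0.91 and -0.64 in log2. Each is a bound set by the floor, that of Cidea at 6 and 24 h and of Slc2a4 at 12 h. At 1 h, 7 lay above and 4 below vehicle, with a median of 0.04. Cidec, a lipid droplet protein, read 371.1 on the vehicle array and 354.3 on the 1 h array, and was at least 2.60-fold lower at 6, 12 and 24 h with signals of 128.1, 61.1 and 102.8. Pparg, the master regulator of fat cell formation, was below the floor on all 5 arrays, at 11.4 to 136. The summed signal of the list was 12750 to 13980 at 6, 12 and 24 h, against 23930 to 27000 in vehicle and at 1 h. Scd1 made up much of it, with 14123.3 (vehicle), 16577.9 (1 h), 7329.4 (6 h), 8013.2 (12 h) and 8269 (24 h). In pooled whole organs, fewer fat cells and less RNA per fat cell cannot be told apart, and how much fat stayed on the trimmed uteri of each group was not tested.

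**Figure D3:**
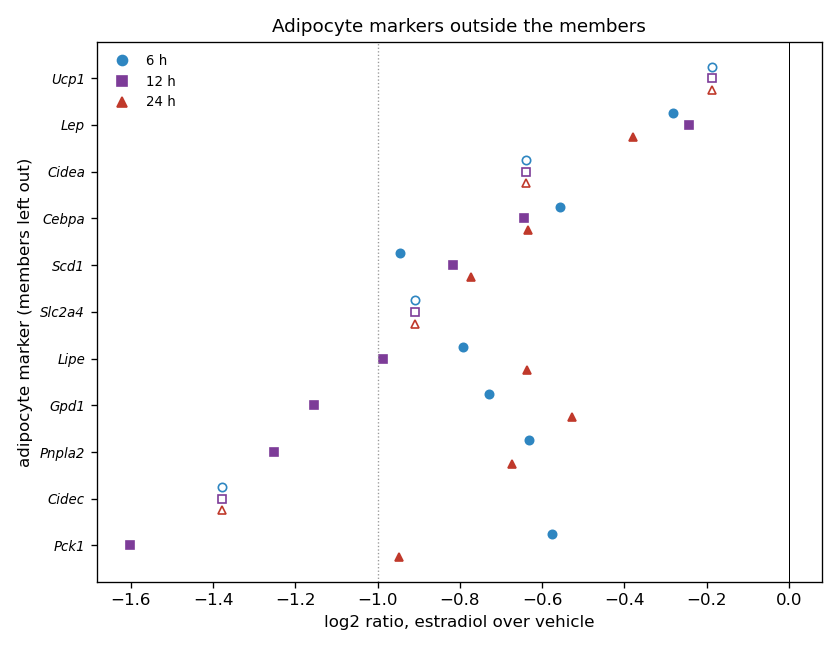
Log2 ratio of estradiol over vehicle at 6 h (circles), 12 h (squares) and 24 h (triangles) for the 11 adipocyte markers measured outside the members. Open symbols are bounds against the floor, the dotted line marks 2-fold lower, and all 11 genes lie left of 0 at the 3 times.

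Genes that store and release triglyceride were mostly below vehicle, with 12, 11 and 11 of 14 measured at 6, 12 and 24 h. Cidea and Cidec at these 3 times, and Lipa at 6 and 12 h, were below the floor and measured through vehicle alone. There they could only lie below it. Of the 14, 2, 5 and 3 were at least 2-fold lower at 6, 12 and 24 h and none higher, with medians of -0.52, -0.72 and -0.58. Over all genes measured, 9.1%, 7.55% and 3.82% were lower, so the count at 6 h has little weight. This list shares Cidea, Cidec, Gpd1, Lipe and Pnpla2 with the adipocyte list. Lpin1, a phosphatidate phosphatase of triglyceride synthesis, had a signal of 655.6 in vehicle, 198.7 at 6 h, 184.1 at 12 h and 354.4 at 24 h, and was 3.30-fold and 3.56-fold lower at 6 and 12 h. The monoglyceride lipase gene Mgll was 2.35-fold and 2.39-fold lower at 12 and 24 h.

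The wider set for uptake, binding and activation of fatty acids had medians closer to those of all genes. Of 9 measured, none was at least 2-fold higher at 6, 12 and 24 h, with medians of -0.07, 0.03 and 0.29. At each time 1 gene was lower, beside 9.1%, 7.55% and 3.82% of all genes. That gene was Slc27a1, a fatty acid transport protein of muscle and fat, with a signal of 1179.5 (vehicle), 984.3 (1 h), 425 (6 h), 254.7 (12 h) and 467.2 (24 h). It was 2.78-fold, 4.63-fold and 2.52-fold lower at 6, 12 and 24 h. The other binding proteins gave little signal: Fabp1, Fabp2 and Fabp7 were below the floor on all 5 arrays, and Fabp6 read 235.6 at 24 h against 156.7 in vehicle.

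Among nuclear receptors and carriers that work with these proteins, 2, 1 and 2 of 10, 11 and 11 measured were at least 2-fold higher at 6, 12 and 24 h and 2, 0 and 1 lower, with medians of -0.02, -0.15 and -0.05. Over all genes measured, 6.91%, 6.71% and 3.69% were higher and 9.1%, 7.55% and 3.82% lower. At 1 h 1 of 9 on this list was higher and 0 lower, beside 0.928% and 0.381% of all genes, with a median of 0.12. Crabp2, a carrier of retinoic acid from the same protein family as Fabp5, was 96 (vehicle), 131.9 (1 h), 510 (6 h), 381.1 (12 h) and 532.3 (24 h). It was at least 3.57-fold, 2.67-fold and 3.73-fold higher at 6, 12 and 24 h, without the 1 h difference of Fabp5. Cebpb, a transcription factor active early in fat cell formation, was 2.78-fold higher at 1 h and 2.36-fold at 6 h, with 1031.3 at 24 h against 1026.1 in vehicle. Nr1h3, the oxysterol receptor LXR alpha, was 2.57-fold lower at 6 h and 2.65-fold at 24 h. Ppard, the receptor supplied by Fabp5, stayed below the floor on all 5 arrays, at 20.7 to 99.5.

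In the leptin and adiponectin signalling list, 8 genes other than Lepr were measured, with medians of 0.08, -0.19, -0.31 and -0.43 at 1, 6, 12 and 24 h. At least 2-fold higher were 1, 1, 0 and 0, and 1 was lower at each time. Over all genes measured, 0.928%, 6.91%, 6.71% and 3.69% were higher and 0.381%, 9.1%, 7.55% and 3.82% lower. Socs3, an inhibitor of leptin receptor signalling, was 2.58-fold higher at 1 h and 2.87-fold at 6 h, with signals of 759.4 and 845.3 against 294.2 in vehicle. Irs2, an adaptor of the insulin receptor, was 2.02-fold lower at 1 h and at least 2.20-fold lower at 6, 12 and 24 h. The adiponectin receptor genes stayed within 2-fold, Adipor1 at 388 at 24 h against 333.8 in vehicle, and Adipor2 at 882.4 against 1276.4.

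Several members are also made by capillary endothelium or macrophages, and the summed signals of both marker lists were lower on the same arrays. The summed signal of 14 endothelium markers was 8195 to 10990 at 6, 12 and 24 h, against 13640 to 15030 in vehicle and at 1 h, with 12 to 14 of them above the floor on each array. At 6, 12 and 24 h 5, 5 and 4 of the 14 were at least 2-fold lower, with medians of -0.32, -0.56 and -0.45, and 11, 11 and 12 lay below vehicle. None was 2-fold higher, but Eng was 1.72-fold higher at 6 h and Kdr 1.74-fold at 12 h. Tek and Vwf at 6 and 12 h, and Icam2 at 24 h, were below the floor and could only lie below vehicle there. Over all genes measured, 9.1%, 7.55% and 3.82% were at least 2-fold lower at 6, 12 and 24 h. Aqp1, a water channel of capillaries, was 4.51-fold lower at 24 h, and the junction gene Cldn5 4.16-fold at 6 h. At 12 h Vwf was at least 4.37-fold lower, and Sox17 3.48-fold. Sox17 was the brightest of the list in vehicle, at 3517.3, and read 1010.1 at 12 h, so it weighs heavily in the sum. Which cells of the uterus gave its signal was not tested. The sum of 19 macrophage markers was 8591 to 10120, against 13520 to 14280, with 12 to 15 above the floor, and 0, 1 and 1 were at least 2-fold lower, with medians of -0.29, -0.59 and -0.37. Of those measured, 14 of 15, 14 of 15 and 10 of 16 lay below vehicle, and 6 of 16 above it at 24 h. Adgre1 and Mrc1 at 6 and 12 h, and Ptprc at 6, 12 and 24 h, were below the floor and could only lie below vehicle. Itgam, below the floor in vehicle, could only lie above it at 24 h. The part of either cell type in the lower signals of Fabp4 and Lpl was not tested.

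Most of the stratified epithelium genes measured lay above vehicle from 6 h on, as Fabp5 did: 11 of 14 (6 h), 14 of 15 (12 h) and 15 of 15 (24 h). Dsc2, and Krt16 at 12 and 24 h, were measured through the estradiol arrays alone, with vehicle below the floor. Like Fabp5, they could only lie above vehicle. Of the 19 on the array, Krt5, Krt14, Krt15 and Ivl were below the floor on all 5 arrays, with 89 for Krt5 at 24 h the highest signal. For these genes no rise was seen. Of the stratified epithelium genes measured, 0 of 14, 7 of 14, 11 of 15 and 13 of 15 were at least 2-fold higher at 1, 6, 12 and 24 h, with medians of 0.08, 0.84, 1.66 and 3.61 and none lower. Their summed signal was 13750 (vehicle), 14670 (1 h), 40150 (6 h), 63990 (12 h) and 153500 (24 h). Over all genes measured, 0.928%, 6.91%, 6.71% and 3.69% were at least 2-fold higher at 1, 6, 12 and 24 h. At the same times 0.381%, 9.1%, 7.55% and 3.82% were lower. Krt16 was at least 77.7-fold, Krt6b 47.4-fold, Krt6a 41.6-fold and Sprr1a 25.6-fold higher at 24 h. Fabp5 differed from this list at 1 h, when none of its genes had passed 2-fold. Markers of uterine epithelium lay on both sides of vehicle, with 7 of 16 at 6 h and 7 of 15 at 12 h below it. They had medians of -0.13, 0.06, 0.21 and 0.45, with 0, 3, 3 and 4 higher and 0, 1, 1 and 0 lower, among them Krt7, 3.45-fold higher at 6 h, Cldn7, 2.03-fold higher at 6 h, Cldn3, 2.13-fold lower at 6 h, and Foxa2, at least 2.72-fold lower at 12 h. Of 15 uterine estrogen targets 6, 9, 8 and 4 were at least 2-fold higher and none 2-fold lower, with medians of 0.82, 2.19, 1.25 and 0.37. Below vehicle lay 1, 1, 1 and 3 of them, among them Ltf, 1.90-fold lower at 12 h, and Ccnd1, 1.81-fold lower at 24 h. Inhbb, below the floor in vehicle, could only lie above it. This list shares Ltf and Muc1 with the uterine epithelium markers and Sprr2f with the stratified epithelium genes.

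**Figure D4:**
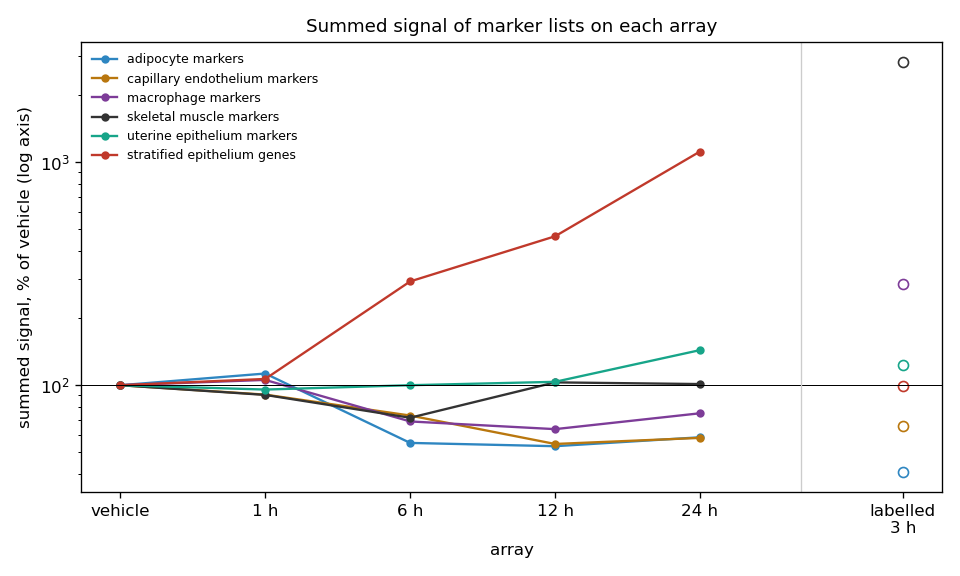
Summed signal of 6 marker lists as a percentage of vehicle (log axis) on the vehicle, 1, 6, 12 and 24 h arrays, with signals below the floor counted as 0 and the array labelled 3 h apart as open circles. Adipocyte markers stand at 53.3% to 58.4% of vehicle from 6 h on, and stratified epithelium genes at 1116% at 24 h.

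The ratios of Fabp5 at all 4 times are bounds, so which genes resembled it most depended on the floor. By the distance between log2 ratios over 4 times among 1302 genes, the first 5 were Lcn2, Dsc2, Snrp1c-ps2, Tmem45a and Icmt, at 1.497 to 2.0002. With the floor at the 20th percentile, tried after the data were seen, Dsc2, Icmt, Sprr2f, Snx12 and Cars came first, and with no floor and 16 added Dsc2, Icmt, Sprr2f, Fkbp11 and Snrp1c-ps2. Dsc2, a desmosomal cadherin, and Icmt, a methyltransferase of prenylated proteins, were among the 5 under each setting. Dsc2 read 115.2 (vehicle), 192 (1 h), 615.5 (6 h), 1180.2 (12 h) and 1450.5 (24 h). For Fabp4, measured on all 5 arrays, the nearest genes were Ube2b (0.09), Grina (0.11), Prkd2 (0.17), Kmt2e (0.18) and Tap2 (0.21), none of them on the adipocyte list. The same 5 genes came first under both other floor settings.

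On the array labelled 3 h, the members split differently from the other arrays. Fabp3, the muscle form, read 1261.4 there against 60.8 in vehicle, at least 8.83-fold higher. Lpl read 3717.2 against 1549.7, 2.40-fold higher, Cd36 243.1 against 84.2, at least 1.70-fold, and Fabp5 343.9 against 78.2, at least 2.41-fold. Retn read 145.5 against 2236.2, 15.4-fold lower, and Adipoq 1067.6 against 4283.1, 4.01-fold lower. Fabp4 was 2.28-fold and Lepr 2.61-fold lower, whereas Car3, at 3315.8 against 3894, was only 1.17-fold lower. Of the 9 members, all measured there, 3 were at least 2-fold higher (11.4% of all genes) and 4 lower (13%). Adipocyte markers outside the members summed to 9789 there, against 23930 in vehicle, and skeletal muscle markers to 116300, against 4154. The adipocyte sum rests largely on Scd1, at 2747.4 there against 14123.3. Of the 12 adipocyte markers measured, 10 lay below vehicle and 2 above, among them Slc2a4, at 1119.2 against 268. Macrophage markers summed to 38460, against 13520 in vehicle. Uterine epithelium markers summed to 21300, against 17360, though 12 of the 15 measured were at least 2-fold lower. The part of these cell types in the member signals was not tested.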

How the data were processed

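Per the submitters' processing notes, the deposited table was made with MAS5 (version: not given in the sources used here). It holds 1 signal intensity per probe set and array on a linear scale, without detection calls, which the authors deposited already scaled: the mean without the top and bottom 2% of values was 500.2 to 500.3 on each array. Of 12488 probe sets, 66 controls were left out. The array annotation gave 10833 probe sets 1 gene symbol, 396 several and 1193 none. Symbols were updated by gene identifier for 10817.

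Arrays were rescaled to the same 2% trimmed mean, values below the 40th percentile (142.8) raised to it, and log2 taken, in Python 3.11.15 with pandas 2.3.3 and scipy 1.17.1. Of several probe sets, the one brightest on average in log2 stands for its gene. Log2 ratios are estradiol over vehicle, and no test was run with 1 array per group. The number of arrays limits the precision. Actin 3' to 5' signal ratios were 1.13 to 1.25. The steps were tested on simulated data, with known changes only in genes bright in vehicle. Folds against a vehicle signal below the floor, as for Fabp5, were not tested in this way. Other floors, scalings, probe set rules and references were tried.

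Named from each list are up to 4 genes at least 2-fold from vehicle at 2 or more of 4 times, largest difference first. Other list genes were singled out after their values were seen. Likeness was searched among genes that reached 352.7 (60th percentile) on 1 of 5 arrays and 2-fold at 1 time. Lists left the members out. Members and lists were chosen with earlier results of these data known.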

Additional observations from a re-analysis of the deposited data

Results flagged for a closer look

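The array labelled 3 h was left out of the time course and set against vehicle only on its own, and 4 member genes had a signal on it above that of the vehicle array: Fabp3 at 1260, Lpl at 3720, Fabp5 at 344 and Cd36 at 243. Of these, Fabp3 and Cd36 were below the floor on the vehicle, 1, 6, 12 and 24 h arrays. No group has 4 or more arrays, so no array was set against others of its own group.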

How the results depend on the processing

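No paired analysis was possible because each group has 1 array. The limits are the lack of replicates and the dim vehicle signal of Fabp5, which turns its folds into bounds. With the floor at the 20th percentile the log2 ratio of Fabp5 exceeded that of Fabp4 by 2.62, 3.51, 4.60 and 5.49 at 1, 6, 12 and 24 h, with the floor at the 60th percentile by 0.45, 0.90, 1.69 and 2.78, and with no floor and 16 added to the signal by 2.40 at 1 h and 3.25 at 6 h. With vehicle and 1 h averaged as the reference it was 1.77, 2.86 and 3.74 at 6, 12 and 24 h. These shifts follow from the floor or the reference itself. Under the 60th percentile floor 0 members were 2-fold higher at 1 and 6 h, and with arrays scaled to the same median 1 was 2-fold lower at 6 h. Of 62 recomputed member counts 59 stayed within 1.5 times and of 337 list medians 332 kept their side of 2-fold and moved by less than 1.5-fold. The estrogen targets stood at 1.303 at 6 h and 0.63 at 12 h under the 60th percentile floor, and at 1.09 and 0.40 against the mean of vehicle and 1 h. The stratified epithelium genes stood at 2.83 at 24 h without a floor. Of 217 member log2 ratios 1 changed sign, that of Adipoq at 1 h, which was -0.01 with scaling by the median against 0.04, and 187 kept their side of 2-fold and moved by less than 1.5-fold, 21 moved further, 8 came inside 2-fold and 1 went past it. Leaving the array labelled 3 h out of the floor and of the choice of probe set, a check added after seeing the data, changed no member count by over 1.5 times.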
